A study of Homo sapiens with 4 samples.

Results

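The genes described here are the matrix metalloproteinases (MMPs), the ADAM and ADAMTS metalloproteinases and their tissue inhibitors (TIMPs). They were taken by name: every row of the expression table called MMP, ADAM or ADAMTS followed by a number, or TIMP followed by 1 to 4, was a member. This rule found 34 of the 18175 rows, made up of 10 MMPs, 10 ADAMs, 11 ADAMTS genes and 3 TIMPs. RNA was sequenced from A375 and SK-MEL-28, established human melanoma cell lines grown in medium with fetal bovine serum. Each line gave 1 library after siNC, by its name a control siRNA, and 1 after siLINC01291, by its name directed at the long non-coding RNA LINC01291. The treatment text also names EL without saying what it is. The siRNA sequences, their number and the time of harvest are not given in the sources used here. Each group is a single library, so ratios inside a line have no replicate behind them. In the main fit on these 4 libraries, p-values rest on how far the siRNA change differs between the lines. The variance is shared over all genes, and that difference may be technical. The p-values between lines carry no replicate of a line.

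MMPs are zinc-dependent proteases that cut collagens and other matrix proteins. Some are secreted as inactive precursors, and others, the membrane-type MMPs, stay anchored at the cell surface. ADAMs are membrane proteins, many of which release the outer part of growth factors, receptors and adhesion molecules from the cell. ADAMTS enzymes are secreted and act on proteoglycans and procollagens, and TIMPs bind the active site of the proteases. In melanoma these enzymes are studied for their part in invasion through the dermis.

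The libraries held between 29351240 and 31815336 counts. Counts of the 34 members made up 0.231% of them with siNC and 0.257% with siLINC01291 for A375, and 0.347 and 0.362% for SK-MEL-28. The target itself, LINC01291, had 827 counts in A375 siNC and 304 in A375 siLINC01291, and 998 and 454 in the SK-MEL-28 libraries. Of 8 melanocytic markers, 8 reached an FPKM of 1 in both SK-MEL-28 libraries and 4 in both A375 libraries, with summed FPKM of 1617 and 1937 against 92.4 and 132.6. MLANA, TYR, TYRP1 and DCT were under an FPKM of 1 in A375. Of 5 markers of the dedifferentiated melanoma state, 4 reached an FPKM of 1 in both A375 libraries and 2 in both SK-MEL-28 libraries, with summed FPKM of 247.7 and 247.5 against 138.1 and 87.1. AXL, NGFR, EGFR and SOX9 were higher in both A375 libraries, AXL at 125.5 and 119.2 against 0.667 and 0.516. TNC of the same list was higher in SK-MEL-28, at 135.8 and 85.3 against 67.9 and 72.2. Of the markers fixed for other cell types, 2 of 6 for fibroblasts, 3 of 5 for epithelium, 1 of 6 for immune cells and 1 of 4 for endothelium had a row. Their summed FPKM ranged from 4.81 to 8.09 for fibroblasts, 0.0787 to 1.94 for immune cells and 0.0428 to 2.37 for endothelium. For epithelium it was 77.4 and 78.5 in A375, nearly all from KRT18, and 5.71 and 5.50 in SK-MEL-28. The part of these markers in the differences below was not tested.

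The first comparison set SK-MEL-28 beside A375 and asked which members each line used. The lines held different sets of MMP transcripts. In A375 the gelatinase MMP2 made up 41.9% (siNC) and 42.2% (siLINC01291) of the summed FPKM of the 10 MMPs. In SK-MEL-28 the membrane-type collagenase MMP14 made up 71.7 and 79.0%. FPKM divides counts by library size and by 1 length for each gene, so comparisons between genes depend on that length. It was 4.62 kb for MMP14, 4.71 kb for MMP2 and 17.7 kb for ADAM9. Shares and ratios between genes are therefore approximate. The summed FPKM of the MMPs was 87.9 and 101 in A375 against 251 and 311 in SK-MEL-28. MMP14, MMP15, MMP16 and MMP17, the membrane-type members, held 38.8 and 44.5% of the sum in A375 and 88.8 and 91.7% in SK-MEL-28. These are bulk libraries, in which fewer cells expressing a gene and less RNA per cell cannot be told apart.

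**Figure D1:**
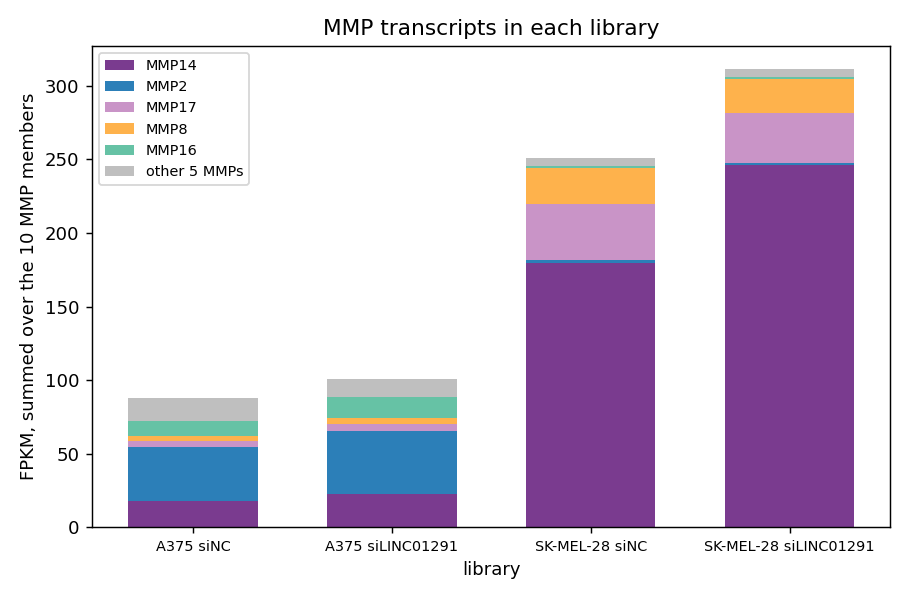
FPKM summed over the 10 MMP members (vertical axis) in each of the 4 libraries (horizontal axis), 1 bar per library, split by gene. MMP14 fills 71.7 and 79.0% of the SK-MEL-28 bars, and MMP2 fills 41.9 and 42.2% of the A375 bars.

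MMP14 is anchored in the membrane, cuts fibrillar collagen and activates the MMP2 precursor. Its FPKM in A375 was 17.7 with siNC and 22.8 with siLINC01291, and in SK-MEL-28 it was 179.9 with siNC and 246 with siLINC01291. Both SK-MEL-28 libraries lay far above both A375 libraries. The log2 difference between the lines was 3.55 (SE 0.08, edgeR adjusted p = 7.21e-07), and the ratio of the siNC libraries was 11.3. MMP17, a membrane-type member held by a lipid anchor, was also higher in SK-MEL-28. Its FPKM was 3.82 and 4.52 in A375 against 38.4 and 33.9 in SK-MEL-28 (siNC first; log2 difference 3.28, SE 0.13, edgeR adjusted p = 3.45e-06). MMP16, a transmembrane member, went the other way, with 3689 and 5441 counts in A375 against 535 and 485 in SK-MEL-28 (log2 difference -2.88, SE 0.17, edgeR adjusted p = 1.48e-05). MMP15, the remaining transmembrane member, lay close in the lines, at 2.72 and 3.49 in A375 against 3.18 and 4.22 in SK-MEL-28. These FPKM overlapped between the lines, and the TMM-normalised CPM did not, with the higher A375 library at 13.8 and the lower SK-MEL-28 library at 14.5. The log2 difference of 0.42 (SE 0.12) passed (edgeR adjusted p = 0.0204). MMP15 lost that call without A375 siNC (adjusted p = 0.426), without A375 siLINC01291 (0.129), without SK-MEL-28 siLINC01291 (0.410), in DESeq2 (0.173) and limma (0.117), and also without siRNA as a term.

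Of the secreted MMPs, MMP2, which cuts gelatin and basement membrane collagen, had an FPKM of 36.8 and 42.7 in A375 against 1.64 and 1.47 in SK-MEL-28. This was the widest gap among MMPs expressed in both lines (log2 difference -4.51, SE 0.13, edgeR adjusted p = 1.29e-06, 20.1-fold between the siNC libraries). The lines thus differed in opposite directions for MMP14 and MMP2. MMP9, the other gelatinase and also a member, reached an FPKM of 1 in no library and was not tested, and its counts are given here after its values were seen. It had 52 and 57 counts in A375 and 0 in both SK-MEL-28 libraries, where 3 counts, the limit that a count of 0 allows, would be a CPM of 0.102. A share of 18.4% of its exonic bases overlaps SLC12A5-AS1 on the opposite strand, so these reads are uncertain.

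MMP1, MMP3 and MMP8 are close on the genome. In GENCODE 29, whose coordinates are on GRCh38, they lie on the minus strand of chromosome 11: MMP8 from 102711795 to 102727050, MMP1 from 102789920 to 102798160 and MMP3 from 102835801 to 102843803. Between MMP8 and MMP1 lie 62869 bases, and between MMP1 and MMP3 lie 37640 bases. Only members were placed, so other genes may lie between them. MMP8, known as neutrophil collagenase, was higher in SK-MEL-28, with an FPKM of 3.99 and 4.58 in A375 against 24.2 and 23.0 in SK-MEL-28 (log2 difference 2.63, SE 0.11, edgeR adjusted p = 4.94e-06). MMP1, the interstitial collagenase, was lower there, with 5.00 and 3.96 against 1.64 and 0.683 (log2 difference -1.85, SE 0.24, edgeR adjusted p = 0.000502). Without A375 siNC the call of MMP1 was lost (adjusted p = 0.0816). MMP3, the stromelysin that can activate other MMPs, was also lower in SK-MEL-28, with 6.48 and 3.45 against 0.549 and 0.733 (log2 difference -2.73, SE 0.31, edgeR adjusted p = 0.000313). These genes therefore differed between the lines in opposite directions. MMP3 entered the test through A375 alone.

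All 3 TIMPs had an FPKM of at least 27.5 in every library. TIMP3, which binds to the matrix and also inhibits several ADAMs and ADAMTS enzymes, led in A375 with 159 and 198 and stood at 193 and 206 in SK-MEL-28. Its FPKM overlapped between the lines, and its TMM-normalised CPM did not, at 702 and 849 in A375 against 952 and 997 in SK-MEL-28. The log2 difference was 0.33 (SE 0.08, edgeR adjusted p = 0.00869). TIMP3 lost the call without A375 siNC (adjusted p = 0.194), without SK-MEL-28 siNC (0.0704), without SK-MEL-28 siLINC01291 (0.133), in limma (0.101) and without siRNA as a term (0.0519). TIMP2, which joins MMP14 and the MMP2 precursor in the complex that activates MMP2, was at 27.5 and 31.1 in A375 against 81.8 and 77.1 in SK-MEL-28 (log2 difference 1.61, SE 0.09, edgeR adjusted p = 1.51e-05). TIMP1 was at 73.7 and 79.1 in A375 against 73.9 and 67.6 in SK-MEL-28, and did not pass (log2 difference 0.05, SE 0.10, edgeR adjusted p = 0.647). Its libraries overlapped between the lines. TIMP2 over MMP14 FPKM was 1.55 and 1.36 in A375 against 0.455 and 0.313 in SK-MEL-28. Summed TIMP over summed MMP FPKM was 2.96 and 3.05 in A375 against 1.39 and 1.13 in SK-MEL-28. The ratio of inhibitors to MMPs was thus lower in SK-MEL-28 by these sums, which carry no test and depend on the length taken for each gene. The summed TIMP FPKM itself was higher there, at 349 and 351 against 260 and 308 in A375. The lower ratio reflects the larger MMP sum of SK-MEL-28, of which MMP14 made up 71.7 and 79.0%.

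**Figure D2:**
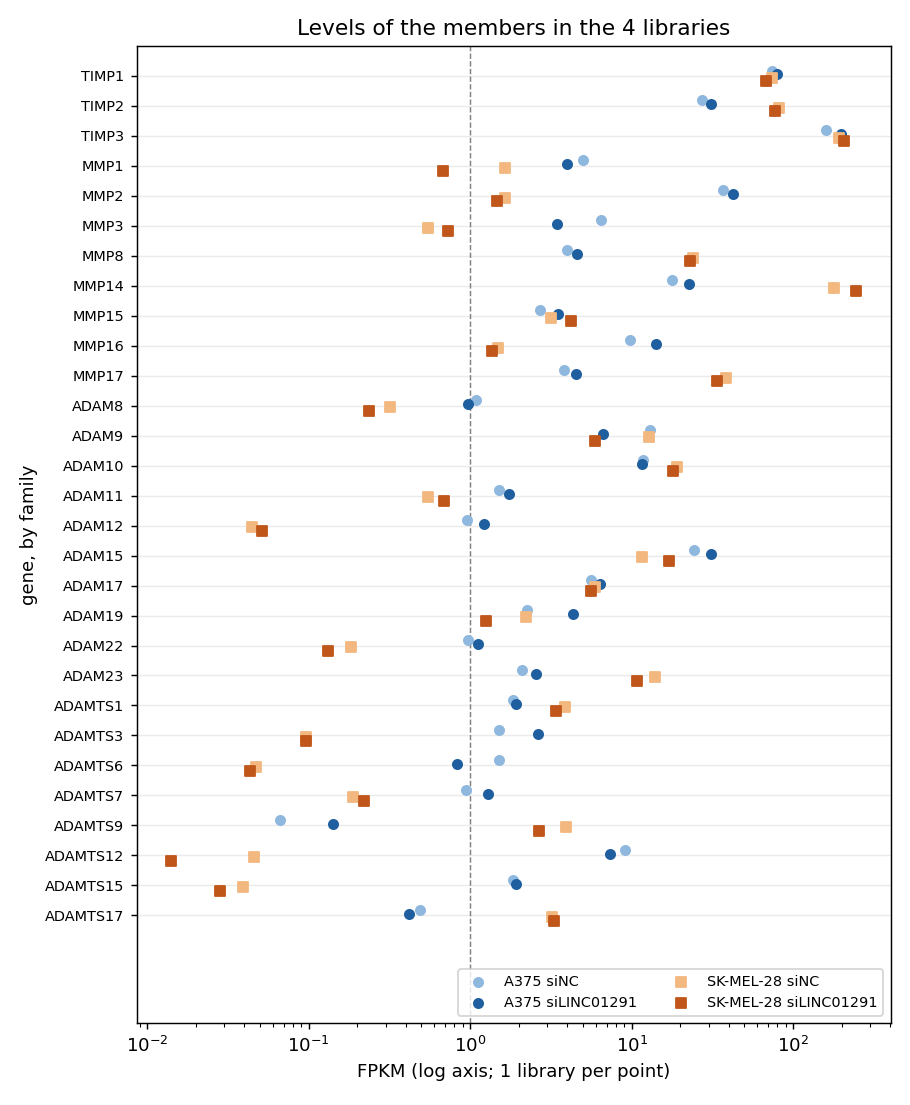
FPKM on a log axis (horizontal) of the 29 members that reached 1 in at least 1 library (vertical axis, by family), 1 point per library. TIMP3 spans 159 to 206, and ADAMTS12 lies at 9.16 and 7.39 in A375 against 0.0459 and 0.0142 in SK-MEL-28; the dashed line marks an FPKM of 1.

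Of the ADAMs with a working protease domain, ADAM10 and ADAM15 passed between the lines, in opposite directions, and ADAM9, ADAM17 and ADAM19 did not. ADAM10, which sheds Notch receptors and many adhesion molecules, had an FPKM of 11.7 and 11.5 in A375 against 19.1 and 18.0 in SK-MEL-28 (log2 difference 0.84, SE 0.08, edgeR adjusted p = 0.000133). ADAM17, the enzyme that releases TNF and ligands of the EGF receptor, stood at 5.61 and 6.37 against 5.97 and 5.57 and did not pass (log2 difference 0.11, SE 0.11, edgeR adjusted p = 0.370). A share of 28.5% of the exonic bases of ADAM17 overlaps IAH1 on the opposite strand, so its level is uncertain. ADAM15 was higher in A375, at 24.4 and 31.2 against 11.6 and 17.0 (log2 difference -0.81, SE 0.09, edgeR adjusted p = 0.00033), and lost the call without A375 siLINC01291 (adjusted p = 0.111). ADAM9, a sheddase, was at 12.9 in both siNC libraries and did not pass between lines (log2 difference 0.08, SE 0.09, edgeR adjusted p = 0.415). ADAM19 was at 2.25 and 2.22 in the siNC libraries of A375 and SK-MEL-28 and at 4.36 and 1.26 in the siLINC01291 libraries (log2 difference -0.73, SE 0.38, edgeR adjusted p = 0.123). Without SK-MEL-28 siNC, ADAM19 passed as higher in A375 (log2 difference -1.23, edgeR adjusted p = 0.0258), and without A375 siLINC01291 the difference was -0.22 (adjusted p = 0.681).

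ADAM11, ADAM22 and ADAM23 lack a working protease domain and act as adhesion receptors best known from neurons. ADAM23 was at 2.11 and 2.55 in A375 against 14.0 and 10.8 in SK-MEL-28 (log2 difference 2.57, SE 0.17, edgeR adjusted p = 2.41e-05). ADAM11 went the other way, with 224 and 266 counts in A375 against 78 and 97 (log2 difference -1.23, SE 0.16, edgeR adjusted p = 0.000619), having entered the test through A375 alone. ADAM22 was not tested, with 410 and 491 counts in A375 against 74 and 53 in SK-MEL-28. ADAM12 was not tested either and had 294 and 384 counts in A375 against 13 and 15. ADAM8, an ADAM of leukocytes and some tumours, had 160 and 148 counts against 45 and 33 and was not tested. All 3 untested ADAMs had more counts in both A375 libraries than in either SK-MEL-28 library. Each reached an FPKM of 1 in 1 library alone, an A375 library. Their shared direction thus follows from the FPKM limit and is no result about ADAMs.

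Of the ADAMTS genes tested, 5 reached an FPKM of 1 in a single line and entered the test through it. ADAMTS12, which acts on cartilage oligomeric matrix protein, had 2725 and 2266 counts in A375 against 13 and 4 in SK-MEL-28 (log2 difference -7.93, SE 0.23, edgeR adjusted p = 1.34e-06). ADAMTS15, a proteoglycan-cutting enzyme, had 342 and 369 counts in A375 against 7 and 5 in SK-MEL-28 (log2 difference -5.60, SE 0.25, edgeR adjusted p = 5.49e-06). ADAMTS3, a procollagen N-proteinase, had 329 and 591 counts in A375 and 20 in each SK-MEL-28 library (log2 difference -4.22, SE 0.24, edgeR adjusted p = 1.29e-05). ADAMTS9, which cuts versican and aggrecan, was the reverse, with 22 and 48 counts in A375 against 1234 and 845 in SK-MEL-28 (log2 difference 5.13, SE 0.32, edgeR adjusted p = 2.1e-05). ADAMTS17 had 128 and 112 counts in A375 against 794 and 817 in SK-MEL-28 (log2 difference 3.01, SE 0.14, edgeR adjusted p = 7.08e-06). Both directions thus occurred among these 5 genes. ADAMTS1, a proteoglycanase expressed in both, had 418 and 450 counts in A375 against 833 and 735 in SK-MEL-28 (log2 difference 1.11, SE 0.12, edgeR adjusted p = 0.000251).

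ADAMTS6 had 402 and 226 counts in A375 against 12 and 11 in SK-MEL-28, and ADAMTS7, which like ADAMTS12 cuts cartilage oligomeric matrix protein, had 228 and 322 against 43 and 50. Neither was tested. ADAMTS7 has 3 pseudogene copies in GENCODE 29 that could take or give reads, so its counts are uncertain. The members that stayed under an FPKM of 1 in each library were ADAMTS16 (highest 0.898), ADAMTS4 (0.842), MMP9 (0.764), MMP19 (0.724) and ADAMTS2 (0.590).

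**Figure D3:**
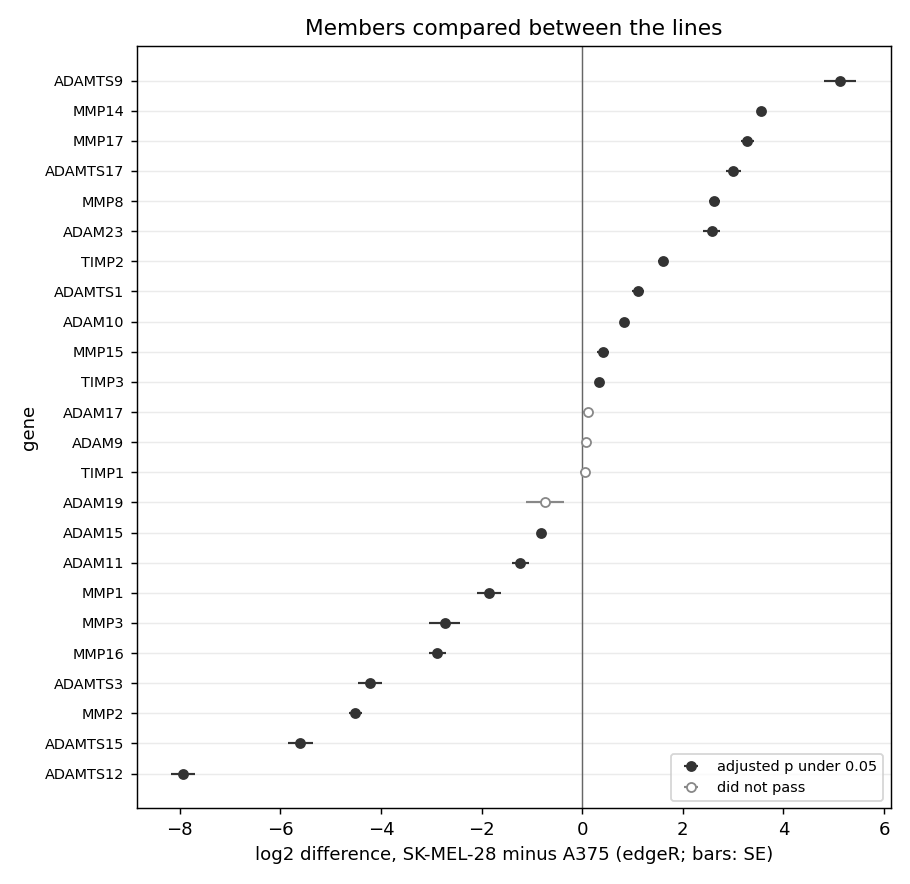
Log2 difference of SK-MEL-28 minus A375 (horizontal axis, edgeR, bars are SE) for the 24 tested members (vertical axis, ordered by value). Filled points passed at an adjusted p under 0.05 and open points did not. Values run from -7.93 for ADAMTS12 to 5.13 for ADAMTS9, and the 4 open points are ADAM17, ADAM9, TIMP1 and ADAM19. ADAM11, ADAMTS3, ADAMTS12, ADAMTS15 and MMP3 entered the test through A375 alone, and ADAMTS9 and ADAMTS17 through SK-MEL-28 alone.

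Of the 24 members tested, 11 were called higher and 9 lower in SK-MEL-28, where 36.1% and 36.3% of all 13501 genes tested were called (72.4% in either direction). Since 7 of the 24 entered through the line in which they are high, a second count was made over members with an FPKM of at least 1 in both lines. There 13 of 17 were called, against 67.3% of 10988 such genes, which is near the background. Differences that were called and at least 4-fold were found for 6 of these 17 (MMP2, MMP8, MMP14, MMP16, MMP17 and ADAM23), against 4.79% of the same genes. The comparison rests on 1 cell line of each kind, and the 2 libraries of a line also differ in siRNA.

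The second comparison set siLINC01291 against siNC. Over both lines, ADAM9 was the member that fell, and 0 members rose. ADAM9 had 7083 counts in A375 siNC and 3741 in A375 siLINC01291, and 6731 in SK-MEL-28 siNC and 3082 in SK-MEL-28 siLINC01291. Its FPKM went from 12.9 to 6.62 in A375 and from 12.9 to 5.92 in SK-MEL-28, so both siLINC01291 libraries lay below both controls. What was left was 49.8% of the siNC level in A375 (95% exact binomial interval of the ratio 0.479 to 0.518) and 45.0% in SK-MEL-28 (0.431 to 0.469). These intervals cover counting error only. The joint log2 change was -1.08 (SE 0.09, edgeR adjusted p = 0.0133 with cell line as a block, lower in 2 of 2 lines). ADAM9 did not pass in limma on log2(FPKM + 1) (log2 change -0.94, adjusted p = 0.0725) or without the cell line block (-1.08, edgeR adjusted p = 1.00), and passed in DESeq2 (-1.07, adjusted p = 7.31e-14).

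This single call among 24 tested members stands beside 0.896% of the 13501 genes tested (0.674% fell and 0.222% rose). At an unadjusted p under 0.05 edgeR gave 4 members higher (MMP14, MMP15, ADAM15 and ADAMTS3) and 2 lower (ADAM9 and MMP1), where 8.53% of all genes tested were higher and 8.37% lower (16.9% in all). DESeq2 called MMP14 higher beside ADAM9, and limma called no member, with 4 higher and 2 lower at an unadjusted p under 0.05. For MMP1, MMP3, ADAM11, ADAMTS3 and ADAMTS15 DESeq2 gave no adjusted p. The median log2 change of the 24 members was -0.0028, against 0.0070 over all genes tested. ADAM9 was 20.3% of the summed ADAM FPKM in A375 siNC and 9.78% in A375 siLINC01291, and 19.2 and 9.92% in SK-MEL-28.

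Short words in the annotated 3' UTR of ADAM9 are absent from most members. An earlier search of these data found that CTATGAA and TCTATGA went with low ratios across genes; ADAM9 was among the genes searched, so the match is a description. One principal protein-coding transcript per gene was searched in GENCODE 29. At least 1 of the words occurred in the 3' UTR of 5 of the 34 members and of 14.4% of the 12154 listed genes searched, so the members carry it about as often as other genes. Tested genes with a word had a median log2 change of -0.11 and those without of 0.02, and 72 of the 86 genes that fell and were searched held a word. The words had been picked on these same ratios, so these values are no separate support. The 5 members were ADAM9, ADAM10, ADAM12, ADAM23 and ADAMTS12. ADAM9 carries CTATGAA once and TCTATGA once in a 3' UTR of 1301 bases. The sites of the other 4 are shown because their genes held the same words and did not pass the test or were not tested. Each is written 5' to 3' on the transcript strand with the word in capitals.

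ADAM10 site 1: gtccttggcaaCTATGAAatttcggggct
ADAM10 site 2: acatataccacCTATGAAgcagttctgcc
ADAM12: tagttgtaggtTCTATGAcctcacttcat
ADAM23: ttgttggctgcCTATGAAtggagattcag
ADAMTS12 site 1: tgaagagcattTCTATGAAaactcgtaaaa
ADAMTS12 site 2: ggatacatatcTCTATGAAatagagagggc

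On GRCh38 the capitals lie at chr15:58594332-58594338 and chr15:58592156-58592162 for ADAM10, chr10:126014695-126014701 for ADAM12, chr2:206621056-206621062 for ADAM23, and chr5:33526455-33526462 and chr5:33524440-33524447 for ADAMTS12. The strand is plus for ADAM23 and minus for the others. ADAMTS12 holds the joined word TCTATGAA at both sites, the only member to do so. It had a log2 ratio of -0.35 in A375 (2725 to 2266 counts, ratio 0.784, interval 0.741 to 0.829) and did not pass over both lines (-0.42, SE 0.18, edgeR adjusted p = 0.303). Its 13 and 4 counts in SK-MEL-28 limit what can be said there. ADAM10, with CTATGAA at both its sites in a 3' UTR of 8740 bases, had 5797 and 5884 counts in A375 against 9014 and 8450 in SK-MEL-28. Its joint log2 change was -0.09 (SE 0.08, edgeR adjusted p = 0.628). ADAM23 had log2 ratios of 0.23 for A375 and -0.40 for SK-MEL-28, with a joint change of -0.11 (SE 0.16, edgeR adjusted p = 0.785). ADAM12, untested, had 0.30 for A375. The joint changes of all 4 tested members with a word were below 0, with a median of -0.27 against 0.01 for the members without. ADAM9 alone of the 4 passed. The words were picked on these same ratios with ADAM9 among the genes, so this gap is no separate support. Whether the words have a part in the fall of ADAM9 was not tested.

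MMP14, MMP15, ADAM15 and TIMP3 were higher with siLINC01291 in both lines, and none of them passed in edgeR. MMP14 had 2538 and 3370 counts in A375 (ratio 1.25, interval 1.19 to 1.32) and 24517 and 33477 in SK-MEL-28 (1.34, interval 1.32 to 1.36). The joint log2 change of MMP14 was 0.38 (SE 0.07, edgeR adjusted p = 0.0879), and DESeq2 gave 0.39 with an adjusted p of 0.0225. ADAM15, whose protein carries an integrin-binding motif, had 4982 and 6561 counts in A375 (ratio 1.24) and 2260 and 3286 in SK-MEL-28 (1.43). Its joint log2 change was 0.41 (SE 0.09, edgeR adjusted p = 0.109). MMP15 was 1.25-fold and 1.30-fold higher (joint 0.35, SE 0.12, edgeR adjusted p = 0.225). TIMP3 had ratios of 1.21 and 1.05 (joint 0.17, SE 0.08, edgeR adjusted p = 0.344).

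MMP1 was lower in both lines, with 424 and 346 counts in A375 (ratio 0.770, interval 0.666 to 0.889) and 132 and 55 in SK-MEL-28 (0.409, interval 0.293 to 0.565). The joint log2 change was -0.72 (SE 0.23) and did not pass (edgeR adjusted p = 0.203). MMP3, which lies near MMP1, had 372 and 204 counts in A375 (ratio 0.517, interval 0.434 to 0.615). In SK-MEL-28 MMP3 had 30 and 40 (1.31, interval 0.796 to 2.18), and it did not pass (joint -0.57, SE 0.30, edgeR adjusted p = 0.393). MMP8, on the other side of MMP1, had ratios of 1.11 and 0.932 (joint 0.02, SE 0.11, edgeR adjusted p = 0.967). These 3 genes did not share 1 direction.

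Within a line, a member was counted when it differed at least 2-fold, with no test. In A375, of 27 members with an FPKM of at least 1, ADAM9 alone was at least 2-fold lower (log2 ratio -1.01), where 1.05% of 13244 genes were. With the deposited CPM its value was -0.96, under 2-fold. In that line 0 members were at least 2-fold higher, where 0.959% of genes were. In SK-MEL-28, of 19 such members, ADAM9 (-1.15) and MMP1 (-1.26) were at least 2-fold lower and 0 higher, where 1.54% and 1.73% of 12336 genes were. Members just under the 2-fold mark in A375 were MMP3 (-0.94), ADAM19 (0.91) and ADAMTS6 (-0.91), and ADAMTS3 stood lower at 0.76. In SK-MEL-28, ADAM19 stood at -0.84.

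Other members had ratios on opposite sides of 1 in the lines. ADAM19, a membrane protease that can shed neuregulin, had 538 and 1073 counts in A375 (ratio 1.88, interval 1.69 to 2.09) and 505 and 286 in SK-MEL-28 (0.556, interval 0.480 to 0.644). Its joint log2 change was 0.09 with the widest SE of the tested members, 0.38 (edgeR adjusted p = 0.941). ADAM23 had ratios of 1.18 (interval 1.03 to 1.34) and 0.757 (interval 0.715 to 0.803), and MMP16, transmembrane, of 1.39 (interval 1.33 to 1.45) and 0.891 (interval 0.786 to 1.01). Of the 17 members with an FPKM of at least 1 in both lines, 10 had opposite signs, against 35.2% of 10988 genes. Of the 29 with an FPKM of at least 1 in a library, 6 had opposite signs each beyond counting error, against 5.65% of 14592 genes. Of the 24 tested, 18 had a ratio above 1 in A375 against 7 in SK-MEL-28 (18 and 8 with the deposited CPM). Of all 13501 genes tested, 6717 and 6798 did. Median log2 ratios of the members were 0.16 and -0.14, against 0.00 over all genes in each line. These values include 5 members tested through A375 alone and 2 through SK-MEL-28 alone. Some had few counts in the other line, such as ADAMTS12 with 13 and 4 in SK-MEL-28. A difference in response between the lines could not be tested, since 1 library per group leaves no degree of freedom for it.

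**Figure D4:**
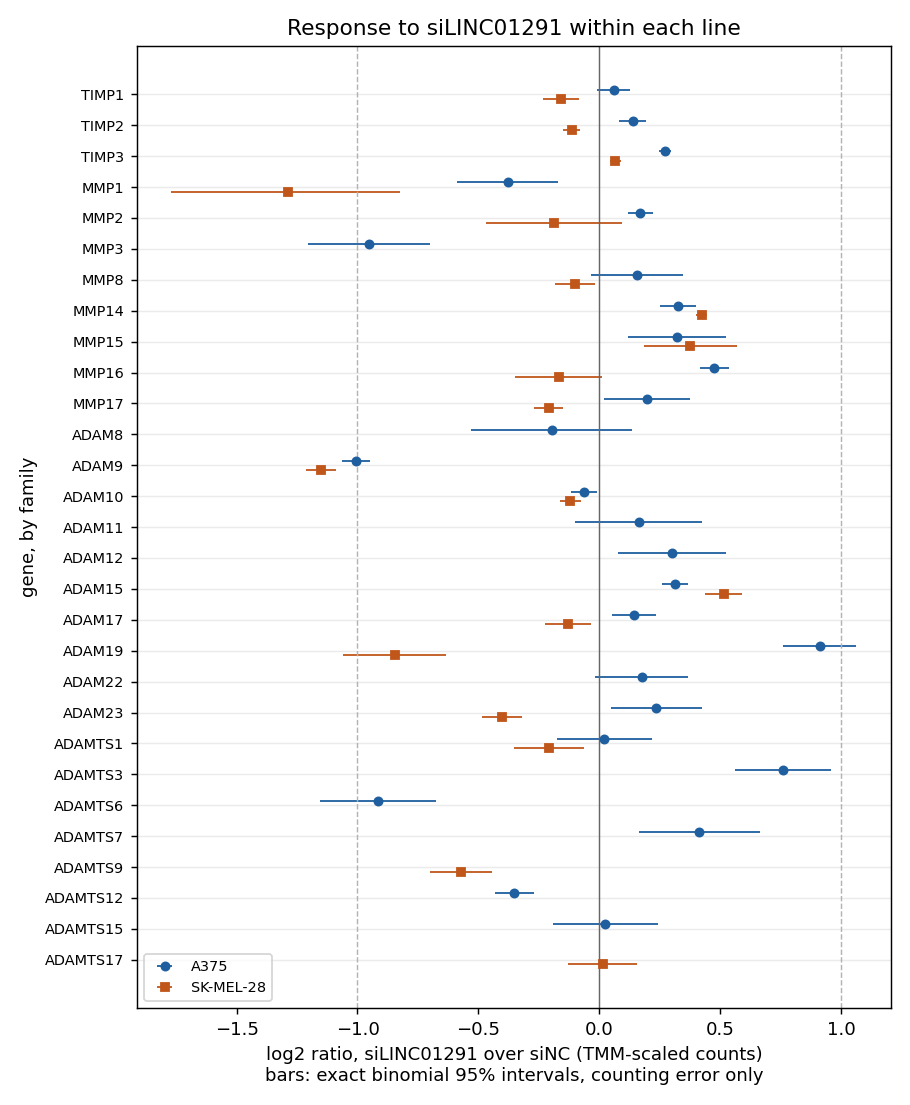
Log2 ratio of siLINC01291 over siNC (horizontal axis) for 29 members (vertical axis, by family), shown for each line in which the member reached an FPKM of 1; bars are 95% exact binomial intervals of counting error and dashed lines mark 2-fold. ADAM9 lies near the left dashed line in both lines, and ADAM19 lies at 0.91 for A375 and -0.84 for SK-MEL-28.

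The remaining members gave no call over both lines. TIMP1 (joint log2 change -0.05, SE 0.10), TIMP2 (0.01, SE 0.09), MMP2 (0.04, SE 0.12), MMP17 (-0.03, SE 0.12) and ADAM17 (0.01, SE 0.11) had adjusted p between 0.857 and 0.979 (edgeR). ADAM11 stood at 0.22 (SE 0.16), ADAMTS1 at -0.10 (SE 0.12), ADAMTS9 at -0.24 (SE 0.29), ADAMTS15 at -0.01 (SE 0.20) and ADAMTS17 at -0.09 (SE 0.14), with adjusted p between 0.559 and 0.983. ADAMTS3 stood at 0.62 (SE 0.21, edgeR adjusted p = 0.221), and its 20 counts in each SK-MEL-28 library leave the value to A375, where 329 counts became 591. ADAMTS6, untested, had a ratio of 0.530 in A375 (interval 0.448 to 0.626). The other untested members had A375 ratios of 0.872 for ADAM8, 1.13 for ADAM22, 1.23 for ADAM12 and 1.33 for ADAMTS7. The TIMP2 to MMP14 ratio was lower in the siLINC01291 library than in siNC in both lines, as given above.

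Genes that act with the members were followed in 6 lists of 106 genes, of which 75 were tested. Of these, 1 rose and 2 fell with siLINC01291 in edgeR (12 higher and 17 lower at an unadjusted p under 0.05, where the shares of all genes tested were 8.53 and 8.37%). DESeq2 called 2 and 4, and limma 0 and 0. Median log2 changes of the lists are given beside 0.0070 for all genes tested.

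Among matrix substrates and ADAMTS-like proteins, 1 of 9 tested rose and 1 fell (median 0.19). Fibronectin (FN1), a matrix glycoprotein cut by many MMPs, fell by 0.61 on the log2 scale (SE 0.06, edgeR adjusted p = 0.0161), with an FPKM of 13.0 and 8.89 in A375 against 569 and 374 in SK-MEL-28. Its 3' UTR holds at least 1 of the words above. Aggrecan (ACAN), the proteoglycan cut by ADAMTS4 and related enzymes, rose by 0.89 (SE 0.12, edgeR adjusted p = 0.0383), from 0.429 to 0.835 in A375 and from 2.08 to 3.87 in SK-MEL-28. Thrombospondin 1 (THBS1), a matrix glycoprotein, was at 418 and 259 in A375 against 1.42 and 1.12 in SK-MEL-28 and did not pass (-0.59, SE 0.10, edgeR adjusted p = 0.0661). Neither limma nor the fit without the cell line block called FN1, ACAN or, below, JUN.

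Of 19 tested transcription factors of metalloproteinase genes, 1 fell and 0 rose (median -0.01), with 2 higher and 5 lower at an unadjusted p under 0.05 in edgeR. JUN, an AP-1 subunit that acts on the MMP1 and MMP3 promoters, fell by 0.65 (SE 0.09, edgeR adjusted p = 0.0468), with an FPKM of 30.6 and 20.3 in A375 against 11.9 and 7.60 in SK-MEL-28. FOSL1, its partner in AP-1, was at 356 and 307 in A375 against 105 and 89.5 in SK-MEL-28 and did not pass (-0.26, SE 0.07, edgeR adjusted p = 0.171). ETV4, an ETS factor, stood at 0.25 (SE 0.09) and SNAI2, a repressor of epithelial genes, at 0.10 (SE 0.11), with adjusted p of 0.222 and 0.702 in edgeR. SNAI2 had an FPKM of 0.276 and 0.325 in A375 against 75.3 and 81.6 in SK-MEL-28.

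The 4 other lists gave 0 calls in either direction in edgeR. At an unadjusted p under 0.05, the proteases that activate metalloproteinases gave 1 higher and 0 lower of 2 tested, the other inhibitors, inducers and receptors 2 and 2 of 13, the partners of ADAM17 and ADAM10 2 and 0 of 8, and the membrane proteins shed by ADAMs 3 and 7 of 24. Their medians were 0.19, 0.08, 0.04 and -0.11. FURIN, the convertase that removes the inhibitory prodomain of membrane-type MMPs and many ADAMs, had an FPKM of 25.6 and 36.2 in A375 against 27.7 and 31.4 in SK-MEL-28 (0.31, SE 0.10, edgeR adjusted p = 0.215). The related convertase PCSK7 stood at 0.07 (SE 0.10), and the surface serine protease HPN, untested, was under an FPKM of 1 in every library. BSG, a surface inducer of MMPs, stood at -0.05 (SE 0.07), the tetraspanin CD63, which binds TIMP1, at 0.13 (SE 0.07) and the serine protease inhibitor SERPINE2 at -0.08 (SE 0.15). The iRhom RHBDF1 and FRMD8, both needed for ADAM17 at the surface, stood at -0.05 (SE 0.12) and -0.25 (SE 0.10), and TSPAN17, a tetraspanin partner of ADAM10, at -0.02 (SE 0.11). Of shed proteins, the amyloid precursor APP stood at -0.05 (SE 0.08) and the adhesion molecule L1CAM at 0.30 (SE 0.07). The prion protein PRNP had an FPKM of 118 and 112 in A375 against 683 and 312 in SK-MEL-28 (-0.64, SE 0.22, edgeR adjusted p = 0.225). Adjusted p of the other genes named in this paragraph lay between 0.123 and 0.955 (edgeR).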

How the data were processed

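Total RNA of the 4 libraries was enriched for polyadenylated RNA and sequenced on an Illumina instrument, per the labels' protocols. Per the labels' protocols, fastp removed adapters and duplicates, ribosomal reads were dropped, HISAT2 did the alignment, StringTie added transcripts and HTSeq counted. The sources used here do not give the strand setting. The submitters' processing notes name hg19, DESeq2 and edgeR without a role. The deposited counts are whole numbers per gene. In the deposited CPM a count is divided by the total of its library, and in the deposited FPKM further by 1 length for each gene. The deposited TPM were not used.

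From the counts, edgeR 4.0.16 (R 4.3.3; TMM, quasi-likelihood test, Benjamini-Hochberg over all genes) was run on the 13501 genes that reached an FPKM of 1 in 2 or more libraries, with cell line and siRNA as terms and 1 residual degree of freedom. The pairing comes from the cell line. The SE given with edgeR values is the absolute log2 change divided by the square root of the F statistic. Ratios within a line used TMM factors, a prior count of 2 on the log2 scale and exact binomial 95% intervals. DESeq2 1.42.0, limma 3.58.1 on log2(FPKM + 1) with a mean-variance trend, another scaling, no filter and left-out libraries were alternatives. The edgeR, DESeq2 and limma fits were also run on simulated counts with the same siRNA change in both lines. There limma took log2(CPM + 1), so its fit on FPKM was not tried. The outcome is not reported here. Words were searched in 3' UTRs of at least 50 bases in GENCODE 29.

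The members, lists and words were chosen with earlier results of these data known. Every member with an FPKM of at least 1 in a library was named with values, and the rest with the highest FPKM. Of each list the genes that passed and the 3 with the highest mean FPKM were named. Tables were handled in Python 3.11.15.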

Additional observations from a re-analysis of the deposited data

Results flagged for a closer look

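In 6 of the 29 members with an FPKM of at least 1 in a library, the lines had log2 ratios of opposite sign, each with a counting interval that does not reach 0. Of all 14592 such genes, 5.65% met the same rule. ADAM19 had 0.91 for A375 and -0.84 for SK-MEL-28. ADAMTS9 stood at 0.97 for A375, with 22 and 48 counts, and at -0.57 for SK-MEL-28. ADAM23 stood at 0.23 and -0.40, MMP17 at 0.20 and -0.21, ADAM17 at 0.14 and -0.13, and TIMP2 at 0.14 and -0.11. With 1 pair of libraries per line these differences between the lines were not tested.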

How the results depend on the processing

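The number of members called with siLINC01291 over both lines was 1 in edgeR and remained 1 with DESeq2 size factors and with no expression filter. It was 2 in DESeq2 (MMP14 and ADAM9), 0 in limma and 0 with no replicate block, the fit that leaves out the pairing by cell line. The cause was not tested. DESeq2 gave no adjusted p here for MMP1, MMP3, ADAM11, ADAMTS3 and ADAMTS15, so it could not call them. Over all genes these fits called 30 higher and 91 lower in edgeR, 146 and 238 with no filter, 99 and 203 in DESeq2, 1 and 5 in limma and 0 and 0 with no replicate block. Small joint changes turned sign in a few fits: ADAMTS15 (0.00053 with DESeq2 size factors, 0.0137 in limma, 0.0157 with no replicate block), ADAMTS9 (0.0834 in DESeq2), MMP17 (0.00862 in limma), MMP8 (-0.0648) and TIMP2 (-0.0504), both with no replicate block. None of these 5 members passed in these fits (DESeq2 gave ADAMTS15 no adjusted p).

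Between the lines, 20 members were called in edgeR, and 17 to 20 when 1 library was left out, with cell line as the only term. With no filter 30 of 34 were called. Without siRNA as a term 18 of 24 were called, and MMP15 and TIMP3 were lost. Members that did not pass turned sign in limma (ADAM17 -0.0447, ADAM9 -0.0708, TIMP1 -0.111), and when a library was left out ADAM9 ranged from -0.58 to 0.70 and TIMP1 from -0.0264 to 0.130. Leaving out a library cannot give a test of the siRNA, since no residual degree of freedom remains. A prior count of 0.5 moved no ratio within a line past its counting interval, and the deposited CPM moved 3, to 0.45 for MMP14 in SK-MEL-28 and to 0.31 and 0.10 for TIMP3. Counts under about 50 in 1 line limit MMP3, ADAMTS3, ADAMTS9, ADAMTS12 and ADAMTS15 there, among the tested members.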
